A study of Mus musculus with 8 samples.

Results

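The 7 genes described here, Neurod2, Neurod6, Tbr1, Slc17a7, Camk2a, Nrgn and Nptx1, are used as markers of the excitatory neurons of the cerebral cortex. Their probes were found by gene name. The genes, and the gene lists used below, were chosen with earlier results of these data known. All 7 had a probe, 9 probes in all, and all 9 were tested, so that they stood as 7 of the 15283 genes tested. Their levels were measured in frozen brain, cut across the whole organ, of 8 mice aged 14 to 16 weeks on a C57BL/6J background (5 generations of backcrossing). Of these, 4 were homozygous for a mutated Pus1 gene and 4 were wild type. Pus1 encodes a pseudouridine synthase that modifies uridines in tRNAs and other RNAs. Each array held 1 mutant mouse and the wild-type mouse with its number, in different dyes, and these are called a pair. Both mice of pairs 1 and 2 were female and those of pairs 3 and 4 male. Cy5 carried the mutant for pairs 1 and 3, Cy3 for the other two. The series title calls the mutation a knockout, and the labels name neither its design nor the level at which the brain was cut.

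Excitatory neurons of the cortex release glutamate onto other neurons and make up most of its cells that project to other areas. Their identity is set by transcription factors of the basic helix-loop-helix and T-box families, glutamate is loaded into their vesicles by a dedicated transporter, and calcium entry at their synapses acts through calmodulin and its kinase. In a section that holds several brain regions, such genes report both the share of cortex in the tissue and the state of its neurons, and on bulk RNA fewer cells of a type and less RNA per cell cannot be told apart.

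Promoters are shown for 3 of the transcription factors. Neurod6 and Tbr1 correlated over the mice at r = 0.93, and Neurod2 less closely with Neurod6 (r = 0.44) and Tbr1 (r = 0.66). Any bearing of the sequences on the levels was not tested. They were taken from RefSeq (GRCm38.p6), 250 bases before to 50 after the start of the gene, 5′ to 3′ on the gene's strand, and the capitals mark the motif CANNTG, the E-box that basic helix-loop-helix factors bind.
Neurod6, chr6:55681214-55681513, minus strand: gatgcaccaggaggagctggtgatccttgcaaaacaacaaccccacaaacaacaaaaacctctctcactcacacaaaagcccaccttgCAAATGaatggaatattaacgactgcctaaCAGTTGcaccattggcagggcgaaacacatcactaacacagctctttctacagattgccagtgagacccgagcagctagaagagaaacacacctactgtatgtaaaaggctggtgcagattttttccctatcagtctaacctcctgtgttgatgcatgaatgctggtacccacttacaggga
Tbr1, chr2:61804203-61804502, plus strand: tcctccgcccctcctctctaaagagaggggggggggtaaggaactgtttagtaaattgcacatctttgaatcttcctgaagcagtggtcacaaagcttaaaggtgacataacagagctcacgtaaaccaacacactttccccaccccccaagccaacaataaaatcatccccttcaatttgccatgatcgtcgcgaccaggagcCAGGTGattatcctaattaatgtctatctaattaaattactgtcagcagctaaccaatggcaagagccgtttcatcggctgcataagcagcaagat
Neurod2, chr11:98329596-98329895, minus strand: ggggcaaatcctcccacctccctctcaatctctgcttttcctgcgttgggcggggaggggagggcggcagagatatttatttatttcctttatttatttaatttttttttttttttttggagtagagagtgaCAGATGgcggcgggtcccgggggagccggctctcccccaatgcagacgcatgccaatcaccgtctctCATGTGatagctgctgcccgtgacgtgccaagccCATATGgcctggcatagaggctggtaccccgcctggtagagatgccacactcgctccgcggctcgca
The motif CANNTG, which reads as itself on both strands, occurred 2 times for Neurod6, 1 time for Tbr1 and 3 times for Neurod2. RefSeq gave a promoter for 5 of the 7 genes (also Nrgn and Slc17a7) and all 5 held the motif, as did 72.3% of 32851 promoters of the same length. The form CAGATG, searched on both strands and contained in the former, occurred in 2 of the 5 (Neurod2 and Nrgn) and in 17.2% of all. A match of letters is a description of the sequence and not of a bound site.

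Levels are normalized log2 intensities of 1 probe, so that mice can be compared within a gene but genes cannot be compared with each other. Over the 8 mice the 7 genes did not separate the genotypes. The 4 mutant and 4 wild-type levels overlapped for 7 of 7 genes, where 1.03% of all tested probes had groups that did not overlap. The mice themselves differed widely, and wild-type mouse 2 had the highest level of 6 of the 7 genes, as it did for 23.9% of all genes tested.

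Tbr1, a T-box factor of deep-layer cortical neurons, had the widest range. Its level was 7.60, 14.21, 11.51 and 12.90 in wild-type mice 1 to 4 and 9.03, 7.76, 11.61 and 11.77 in mutant mice 1 to 4. Wild-type mouse 1 and mutant mouse 2 were lowest, mutant mouse 1 was next, and wild-type mouse 2 was highest, 97.4-fold above the lowest. By its SD over the 8 mice (2.41) Tbr1 ranked 10 of 15283 genes, where the median gene had an SD of 0.29. The spot itself read 117.5 over a background of 52.5 in wild-type mouse 1 (Cy3) and 35052 over 148 in wild-type mouse 2 (Cy5). A second, dimmer probe of Tbr1 was well above background in 3 wild-type and 2 mutant mice and also had its highest level in wild-type mouse 2, at 8.95 against 6.17 in wild-type mouse 1.

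Neurod6, a helix-loop-helix factor of pyramidal neurons of cortex and hippocampus, was measured at 7.22, 11.91, 9.15 and 11.36 in wild-type mice 1 to 4. In mutant mice 1 to 4 it was 8.07, 8.07, 9.81 and 11.48. The lowest levels were again those of wild-type mouse 1 and mutant mice 1 and 2, and the range was 25.9-fold. Its mean was 9.91 ± 2.15 in wild type and 9.36 ± 1.64 in the mutant (SD, n = 4 each).

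Neurod2, the related factor that drives differentiation of cortical neurons and is also made by granule cells of the cerebellum, kept a narrower range of 4.90-fold. Its level was 12.99, 13.69, 13.85 and 13.14 in wild-type mice 1 to 4 and 13.27, 11.64, 13.93 and 13.41 in mutant mice 1 to 4. Mutant mouse 2 stood alone below the rest, and wild-type mouse 1 and mutant mouse 1, which were low for Neurod6 and Tbr1, lay within 1 log2 unit of the highest mouse.

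The transporter Slc17a7 (VGLUT1), which loads glutamate into synaptic vesicles, was at 9.67, 12.34, 11.30 and 11.77 in wild-type mice 1 to 4. In mutant mice 1 to 4 it was at 9.76, 9.97, 11.20 and 12.29. The 2 mice of pair 1 and mutant mouse 2 were lowest, and the means were 11.27 ± 1.15 in wild type and 10.80 ± 1.18 in the mutant (SD, n = 4 each).

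Camk2a, the alpha subunit of the calcium/calmodulin kinase of forebrain synapses, was at 9.16, 13.21, 11.36 and 12.65 in wild-type mice 1 to 4. In mutant mice 1 to 4 it was at 9.88, 9.20, 11.01 and 12.49, a 16.5-fold range over the 8 mice. Its second probe ran from 8.19 to 11.57 with the same highest mouse, and its lowest were mutant mouse 2 and wild-type mouse 1.

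Nrgn (neurogranin), which holds calmodulin in dendritic spines, was at 11.87, 15.23, 13.59 and 14.60 in wild-type mice 1 to 4 and 12.10, 13.30, 13.41 and 14.21 in mutant mice 1 to 4. For Nrgn the 2 mice of pair 1 were lowest and mutant mouse 2 lay nearer to pair 3 than to them. Nptx1 (neuronal pentraxin 1), a secreted protein that gathers glutamate receptors at synapses, had the narrowest range, 2.23-fold. It was at 8.07, 8.88, 8.61 and 8.17 in wild-type mice 1 to 4 and 8.34, 7.73, 8.85 and 8.61 in mutant mice 1 to 4, with mutant mouse 2 lowest, as for Neurod2.

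**Figure D1:**
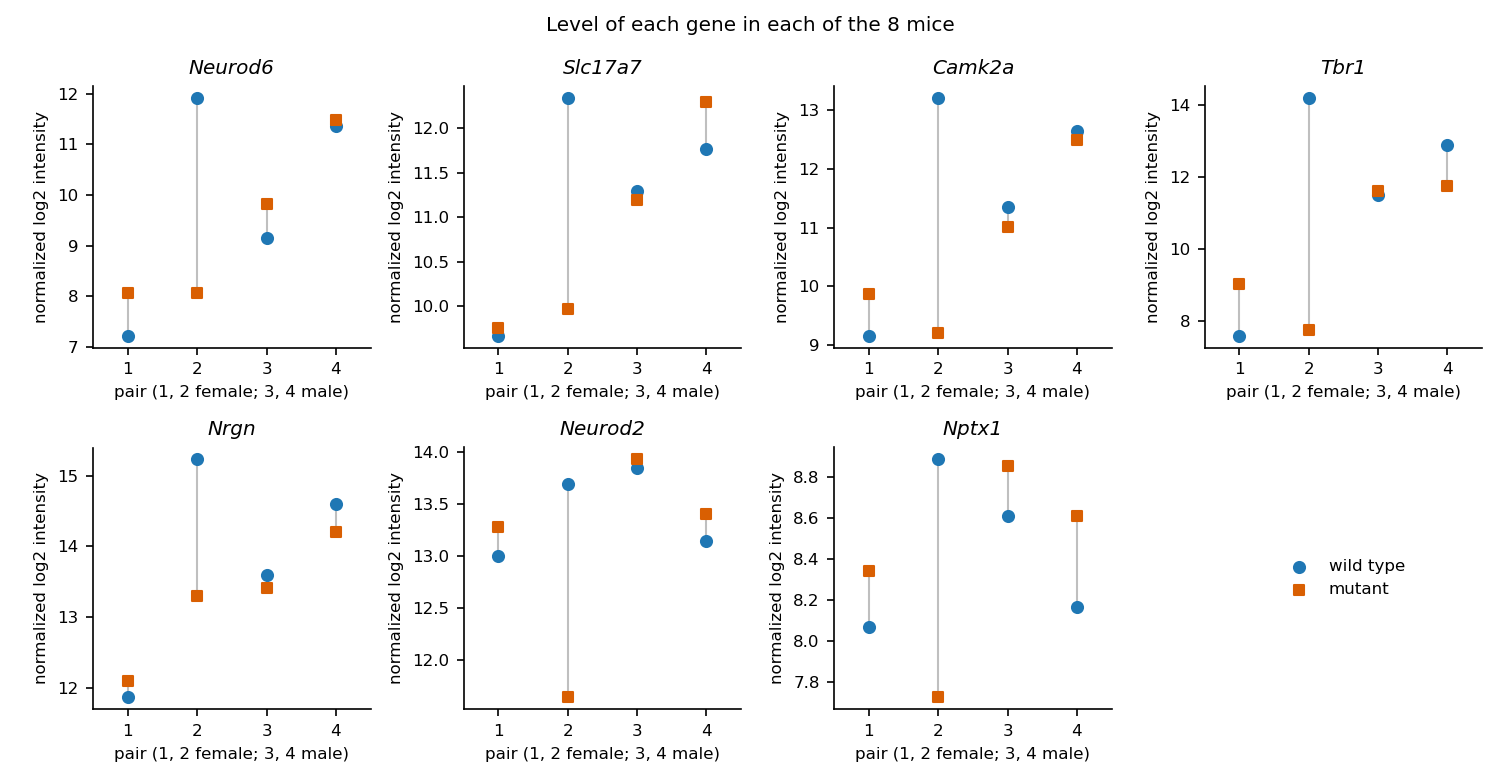
Normalized log2 intensity (vertical axes, each gene on its own scale and not from 0) of the 7 genes in the wild-type (circles) and mutant (squares) mouse of each of the 4 pairs (horizontal axes), with a line joining the mice of a pair. In pair 2 the wild-type mouse lay far above the mutant for every gene, while in pair 1 both mice were low for Neurod6, Slc17a7, Camk2a, Tbr1 and Nrgn.

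The genes fell into 2 patterns, a division made after their levels were seen and therefore not tested. Neurod6, Slc17a7, Camk2a, Tbr1 and Nrgn correlated with each other over the 8 mice at r = 0.88 to 0.97 in 10 gene pairs. Neurod2 and Nptx1 correlated with each other at r = 0.91 (Spearman's rho 0.88), and with the other 5 at r = 0.25 to 0.75. These are descriptions over 8 mice that shared arrays in pairs and 1 slide. Wild-type mouse 1, mutant mouse 1 and mutant mouse 2 held the lowest 3 levels of 5 of the 7 genes and of 6.16% of all genes tested. All 3 were female, as was wild-type mouse 2, the highest.

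The first comparison asked whether loss of Pus1 altered these genes. The targeted transcript served as a check of the labels: Pus1 was lower in the mutant of every pair, at a log2 ratio of -2.59 ± 0.38 (SD, n = 4 pairs; adjusted p = 0.0364 in limma). Of the 7 genes none rose and none fell, at adjusted p = 0.811 to 0.985 in limma over 33300 probes. Over all probes 0.00901% were called, 0.00601% as lower in the mutant, so that a count of 0 among 7 is what the background gives. By the brightest probe of each gene, 0 of 7 had an unadjusted p under 0.05 in limma, a limit met by 2014 of the 33300 probes. The second, dimmer probe of Tbr1 met it, at an unadjusted p of 0.0112 (mean log2 ratio -0.75, adjusted p = 0.757 in limma). That of Camk2a did not (unadjusted p = 0.0640 in limma). All 7 mean ratios were below 0, as were those of 48.2% of all genes tested. The median of the 7 was -0.55 against 0.01 over all genes. By pair that median was 0.28, -2.37, 0.08 and 0.13.

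For Tbr1 the log2 ratio of mutant over wild type was 1.43, -6.45, 0.11 and -1.13 in pairs 1 to 4, a mean of -1.51 ± 3.45 (SD, n = 4 pairs; adjusted p = 0.832 in limma). Camk2a had 0.71, -4.01, -0.35 and -0.16, with a mean of -0.95 ± 2.09 (adjusted p = 0.852 in limma). Neurod6 had 0.84, -3.84, 0.66 and 0.13, with a mean of -0.55 ± 2.22 (adjusted p = 0.905 in limma). In each of these genes pair 2 gave a difference of 14.4-fold or more. The other pairs took both signs for Tbr1 and Camk2a and were all positive for Neurod6.

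Slc17a7 had ratios of 0.09, -2.37, -0.10 and 0.53 in pairs 1 to 4 (mean -0.46 ± 1.30, adjusted p = 0.890 in limma). Nrgn had 0.23, -1.94, -0.18 and -0.39 (mean -0.57 ± 0.95, adjusted p = 0.811 in limma). Neurod2 had 0.28, -2.06, 0.08 and 0.27 (mean -0.36 ± 1.14, adjusted p = 0.896 in limma). For Nptx1 they were 0.27, -1.16, 0.24 and 0.44 (mean -0.05 ± 0.74, adjusted p = 0.985 in limma). The SD over pairs exceeded the mean for all 7 genes, and 0 of 7 had the same sign in all 4 pairs, against 11.8% of all probes.

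**Figure D2:**
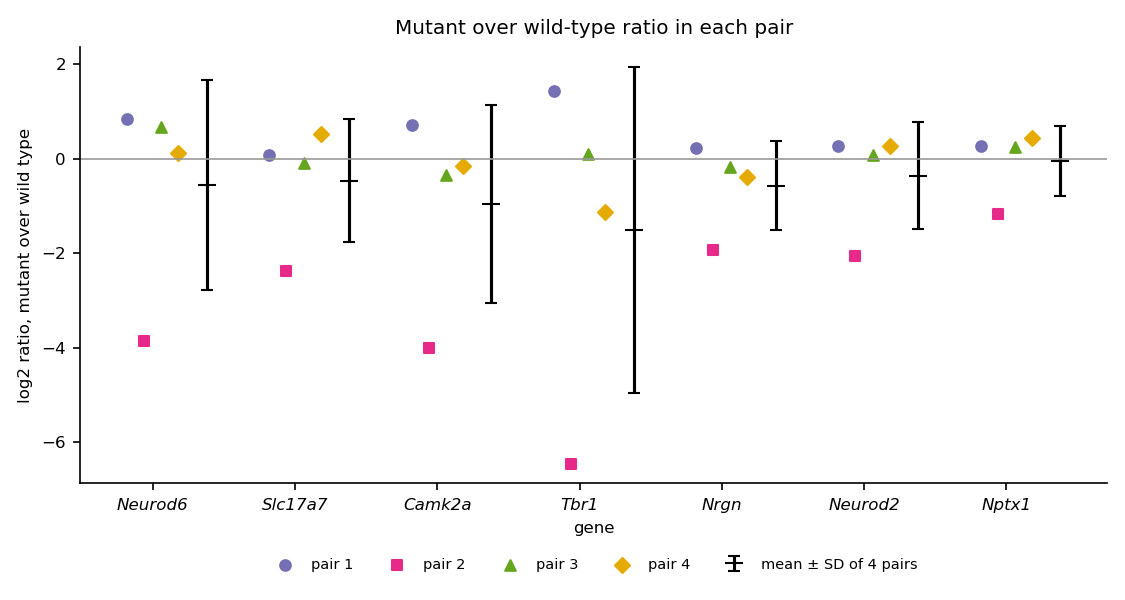
Log2 ratio of mutant over wild type (vertical axis) for each gene (horizontal axis) in each of the 4 pairs (coloured points), with the mean and SD of the 4 pairs in black. The pair 2 points lie lowest in every gene, from -1.16 for Nptx1 to -6.45 for Tbr1. The other pairs lie above 0 for Neurod6, Neurod2 and Nptx1 and on both sides of 0 for the other 4 genes.

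In pair 2 all 7 genes were over 2-fold lower in the mutant, where 4.69% of all probes were. The 7 genes were chosen with earlier results of these data known. Their counts beside shares of all probes or genes are therefore descriptions and not tests. In pairs 1 and 3 no gene was over 2-fold lower (0.165% and 0.532% of probes) and in pair 4 Tbr1 alone was (0.58% of probes). Over 2-fold higher in the mutant was Tbr1 in pair 1 (0.375% of probes) and no gene in pairs 2, 3 and 4 (3.99%, 1.87% and 0.526%). The plain mean over pairs 1, 3 and 4 was above 0 for Neurod6 (0.54 ± 0.37), Nptx1 (0.32 ± 0.11), Neurod2 (0.21 ± 0.11), Slc17a7 (0.17 ± 0.32), Tbr1 (0.14 ± 1.28) and Camk2a (0.07 ± 0.57), and below 0 for Nrgn (-0.11 ± 0.32; SD, n = 3 pairs). Without pair 2 no gene passed in limma (adjusted p = 0.428 to 0.994). Without pair 4, 6 of the 7 genes passed as lower in the mutant, all but Nptx1, at adjusted p = 0.0150 to 0.0359 in limma, where 1.76% of probes were called lower. In that fit pair 2 was the only array of its dye orientation, so its spread came from the difference between pairs 1 and 3 alone.

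The ratios of mutant over wild type were also compared between the dye orientations and between the sexes. The mean ratio of pairs 1 and 3 lay above that of pairs 2 and 4 for all 7 genes, by 0.62 for Nptx1 (0.26 against -0.36) to 4.56 for Tbr1 (0.77 against -3.79). Pair 4 by itself did not lie below pairs 1 and 3 for every gene. It lay above both for Slc17a7 (0.53) and Nptx1 (0.44), between them for Neurod2 and Camk2a, and below both for Neurod6, Nrgn and Tbr1. The dye term had adjusted p = 0.371 to 0.659 in limma. No gene passed (0% of probes), and Tbr1 alone had an unadjusted p under 0.05 (0.0343 in limma, not adjusted), among 4319 probes. The second probes of Tbr1 (0.00222) and Camk2a (0.0402) also had unadjusted p under that limit in limma. The mean ratio was lower in females than in males for all 7 genes, by 2.00 for Tbr1 (-2.51 against -0.51) and by 0.57 for Nrgn (-0.85 against -0.29), at adjusted p = 0.993 for all 7 in limma. No probe passed the test of sex (0% of probes), with 925 probes and none of the 7 genes at an unadjusted p under 0.05. Each sex held 2 pairs, and pair 2 is 1 of the 2 female pairs.

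Genes with related roles were read from 6 lists on the identity and synapses of excitatory neurons, with genes named from among the 3 brightest tested of each. None of their members rose or fell with all pairs in the fit. Without pair 4, where 1.76% of probes fell, 7 of 18 cortical transcription factors fell, as did 3 of 14 kinase and postsynaptic genes, 1 of 9 of the calmodulin list, 2 of 21 glutamate receptor subunits and 2 of 7 pentraxins and organisers. Without pair 1, 2 or 3 none passed. Among these 6 lists, the cortical transcription factors had the median ratio nearest to that of the 7 genes. The mean level of the kinase and postsynaptic list had a higher r with the 7 genes than theirs (0.98 against 0.97). For the transcription factors the median ratio was -0.40 over 18 members, with 0.31, -1.94, 0.17 and -0.14 in pairs 1 to 4. In pair 2, 11 of them were over 2-fold lower in the mutant, where 4.69% of all probes were. Lmo4, a transcriptional cofactor of the cortex, had -0.59 ± 1.44 and its level correlated with the mean of the 7 genes at r = 0.95. Sox5 (0.06 ± 0.72, r = -0.29) and Etv1 (0.25 ± 0.47, r = -0.13), factors of deep-layer neurons that are made elsewhere in the brain as well, did not share the pattern (adjusted p = 0.838 to 0.969 in limma).

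The kinase and postsynaptic density list had a median of -0.26 over 14 members, with -1.01 in pair 2 and -0.11 to 0.27 in the other pairs. Camk2b, the beta subunit beside Camk2a, had -0.28 ± 0.55 (r = 0.84), Dlgap3, a scaffold of the postsynaptic density, -0.48 ± 0.97 (r = 0.93), and Camk2g, a kinase subunit of many tissues, -0.23 ± 0.18 (r = 0.22). Calmodulins and the small proteins that bind them had a median of -0.22 over 9 members, with -1.16 in pair 2. The calmodulin gene Calm2 (-0.13 ± 1.04, r = 0.90) had levels that went with the mean of the 7 genes over the mice, and Pcp4, a calmodulin regulator of Purkinje cells, had a lower r (-0.11 ± 0.76, r = 0.22).

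Glutamate receptor subunits had a median of -0.16 over 21 members, with -0.62 in pair 2. Among the brightest were Gria4 (0.24 ± 0.23) and Grin2c (0.32 ± 0.46), subunits that are abundant in the cerebellum, and their r with the 7 genes was -0.59 and -0.20. Pentraxins and secreted synapse organisers had a median of -0.18 over 7 members, with -1.48 in pair 2. Among them Olfm1 had -0.59 ± 1.26 (r = 0.96), C1ql3 -0.30 ± 1.10 (r = 0.96) and the growth factor Bdnf 0.18 ± 1.12 (r = 0.76). Genes of glutamate synthesis, loading and uptake had a median of 0.08 over 8 members and 0.33 in pair 2. There Got1, an enzyme that interconverts aspartate and glutamate, had 0.14 ± 0.10 (r = 0.11) and the glutamine transporter Slc38a1 0.22 ± 0.25 (r = -0.75).

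Markers of other cells and regions differed between the same mice, as the plot of list medians by mouse shows, and their part in the result was not tested. These lists too were chosen with earlier results of these data known. Their counts beside shares of all probes or genes are therefore descriptions and not tests. Beside each list's name, the range of its mean level in wild type and in the mutant is given. The 6 tested hindbrain and midbrain markers, genes of dopamine, noradrenaline, serotonin and acetylcholine neurons, ran from 8.62 to 11.86 in wild type and from 8.58 to 11.74 in the mutant. They were highest in mutant mouse 2 (median 2.23 above each gene's mean) and wild-type mouse 1 (2.01), and lowest in wild-type mice 4 (-1.18) and 2 (-1.17). In pair 2 all 6 were over 2-fold higher in the mutant, where 3.99% of all probes were. The other 4 genes of that list were not tested, and its mean correlated with that of the 7 genes at r = -0.95.

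The 12 cerebellar markers ran from 8.95 to 12.63 in wild type and from 9.74 to 13.25 in the mutant. All 12 had a mean ratio above 0 and 10 were higher in the mutant of all 4 pairs. Of all probes 11.8% had the same sign in all pairs, a share that counts both directions together. The list's median ratio was 1.06, with 0.42, 0.85, 0.68 and 2.04 in pairs 1 to 4. In limma 8 of the 12 had an unadjusted p under 0.05, against 2014 of all 33300 probes, and none of the 12 markers passed after adjustment. They were high in mutant mouse 3 (2.05), mutant mouse 1 (1.57), wild-type mouse 3 (1.39) and wild-type mouse 1 (0.91), and low in wild-type mouse 2 (-2.32), wild-type mouse 4 (-2.08) and mutant mouse 2 (-1.41). Mutant mouse 2 was low in both the cerebellar markers and Tbr1, and had the lowest level of Neurod2 (11.64). Wild-type mouse 1 was low in Tbr1 and high in the cerebellar markers, with Neurod2 at 12.99. Wild-type mouse 2, lowest in the cerebellar markers, had Neurod2 at 13.69, where the highest mouse (mutant mouse 3) had 13.93. Over the 8 mice Neurod2 and Nptx1 correlated with the cerebellar mean at r = 0.41 and 0.23, and the other 5 genes at r = -0.69 to -0.36. Why Neurod2 and Nptx1 differed from the other 5 genes was not tested.

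Oligodendrocyte markers ran from 13.17 to 13.96 in wild type and from 13.05 to 14.63 in the mutant, and were highest in mutant mouse 2 (1.07). In pair 2, 10 of 12 were over 2-fold higher in the mutant, where 3.99% of all probes were. Immediate early genes, which follow neuronal activity, ran from 9.37 to 12.38 and from 9.50 to 10.94. All 13 tested had their highest level in wild-type mouse 2, as did 23.9% of all genes tested. Their median ratio, -0.55, was nearer to that of the 7 genes than was the median of the cortical transcription factors. In pair 2 it was -2.27, and all 13 were over 2-fold lower in the mutant, where 4.69% of all probes were. Inhibitory neuron markers (11.70 to 12.50 and 11.59 to 12.47; 12 genes) and markers common to all neurons (14.68 to 14.90 and 14.42 to 14.98; 16 genes) had medians of -0.47 and 0.08 in pair 2, with members on both sides. Among the 12 inhibitory genes 4 were over 2-fold lower in the mutant of pair 2 (Vip, Dlx2, Dlx1 and Npy, at -3.51 to -2.30). Slc32a1 (1.15) and Pvalb (1.13) were the 2 that were over 2-fold higher, all named after their values were seen. The list's mean correlated with the 7 genes at r = 0.96, but the median r of its genes was 0.29, with 4 of 12 at 0.8 or more. Of the 16 genes of all neurons 2 were over 2-fold lower in the mutant of pair 2 and 4 higher. Of all probes 4.69% were over 2-fold lower and 3.99% over 2-fold higher in that pair. Hippocampal (9.25 to 10.73 and 9.51 to 11.08; 8 of 10 tested), striatal (10.91 to 12.08 and 10.81 to 12.07; 12), thalamic (9.16 to 10.76 and 9.54 to 11.03; 9 of 10) and hypothalamic markers (8.67 to 10.45 and 9.46 to 12.06; 10) had medians of -0.93, -0.39, 0.15 and 0.83 in pair 2. Astrocyte (13.31 to 13.73 and 13.55 to 13.87; 10), microglial (11.95 to 12.60 and 11.99 to 12.42; 10), endothelial (10.50 to 10.82 and 10.49 to 11.01; 8) and choroid plexus markers (8.24 to 10.84 and 8.63 to 9.89; 8) had 0.53, -0.23, 0.26 and 1.26. No member of any of these lists rose or fell with all pairs in the fit. Without pair 2, 5 cerebellar and 1 hypothalamic marker rose, where 0.039% of probes were called. Pair 4 was then the only array of its dye orientation, so the spread came from the difference between pairs 1 and 3 alone. The cerebellar list had its largest median ratio in pair 4 (2.04). Without pair 4, where 2.8% of probes were called, 10 immediate early, 4 inhibitory, 3 hippocampal and 2 pan-neuronal genes fell. In the same fit 4 cerebellar, 2 thalamic, 2 oligodendrocyte, 2 astrocyte, 1 hypothalamic, 1 hindbrain and midbrain and 1 pan-neuronal gene rose.

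**Figure D3:**
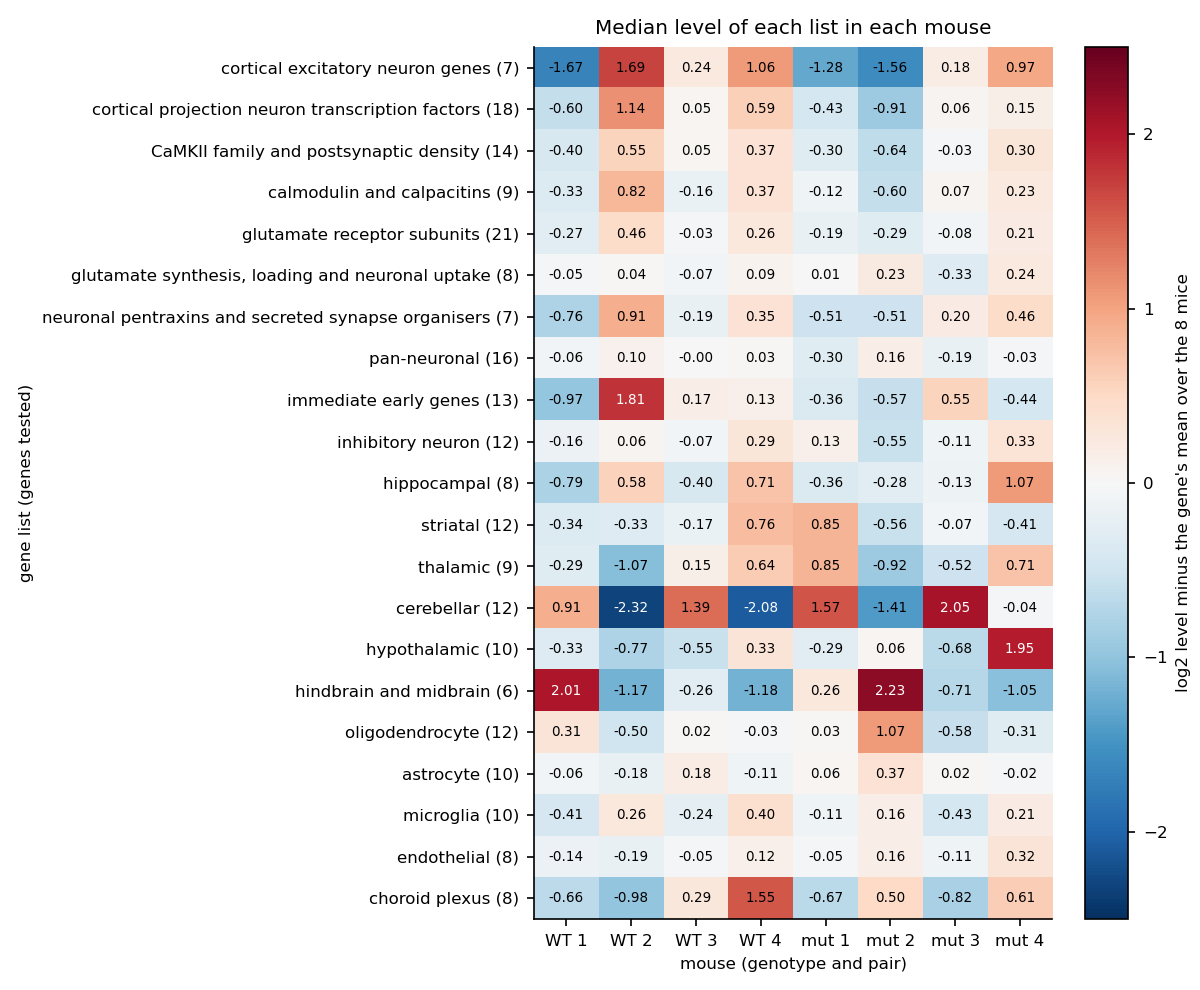
Median over the genes of a list of the log2 level minus the gene's own mean over the 8 mice (colour and printed value), for each list (rows, with the number of genes tested) and mouse (columns). The 7 cortical genes in the top row are low in wild-type mouse 1 and mutant mice 1 and 2, and the hindbrain and midbrain markers are high in the first and last of these.

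The genes whose level over the 8 mice was most like the mean of the 7 (each centred on its own mean) were Npcd, Zfp451, Kalrn, Cort, Parp6, Bsn, Psd, Rtn4r, Iqsec2 and Dcaf6, at r = 0.98 to 1.00. Kalrn, an activator of small GTPases in dendritic spines, spanned 4.53 log2 units (r = 0.996), and Cort, the neuropeptide cortistatin of cortical interneurons, 3.56 (r = 0.992). Bsn, the presynaptic scaffold bassoon, spanned 1.54 (r = 0.987) and Rtn4r, a receptor for myelin proteins, 2.36 (r = 0.986), whereas Zfp451 spanned only 0.36 (r = 0.998). An r of at least 0.9 was reached by 473 of 15276 other genes. The genes least like the 7 were Enpp3, Ebpl, Th, Taf13 and Loxl2, at r = -0.98 to -0.97. Th, the rate-limiting enzyme of dopamine and noradrenaline synthesis, was at 13.05, 10.28, 11.35 and 10.96 in wild-type mice 1 to 4. In mutant mice 1 to 4 it was at 11.86, 12.74, 11.02 and 10.88, so that it was highest in the mice with the least Tbr1. Its ratio was -1.19, 2.46, -0.33 and -0.08 in pairs 1 to 4 (mean 0.22 ± 1.57, adjusted p = 0.951 in limma).

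**Figure D4:**
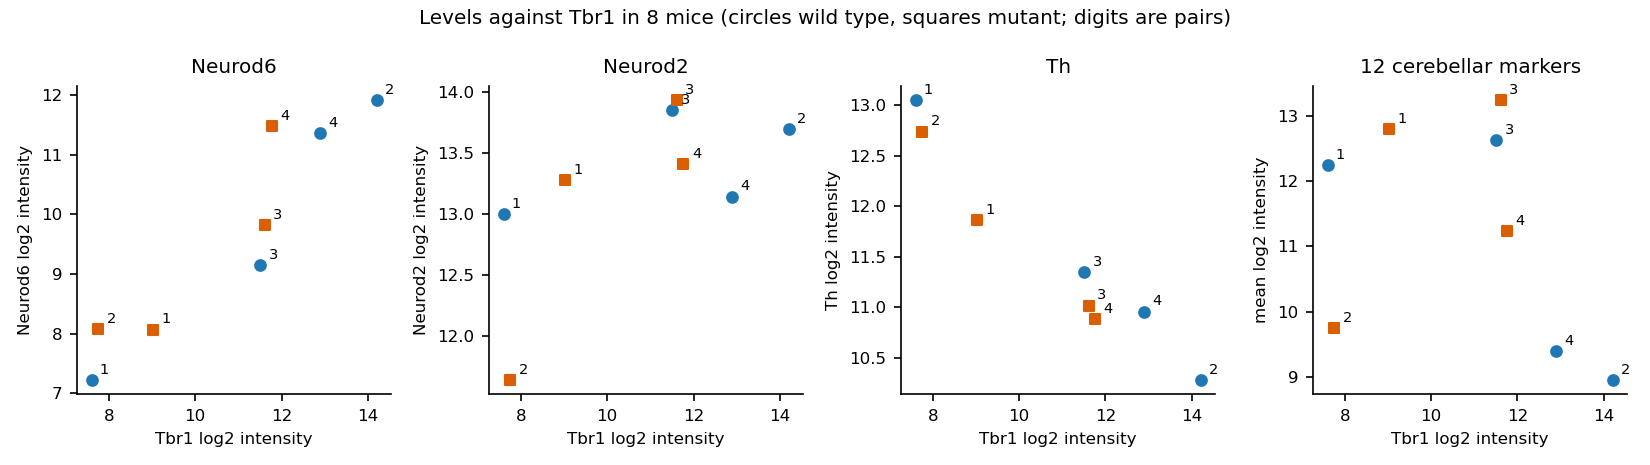
Level of Neurod6, Neurod2 and Th and the mean level of 12 cerebellar markers (vertical axes, normalized log2 intensity) against the level of Tbr1 (horizontal axes) in the 8 mice, with the pair number beside each point. Neurod6 is higher and Th lower in the mice with more Tbr1. Neurod2 is lowest in mutant mouse 2, which is low in both Tbr1 and the cerebellar markers. In wild-type mouse 2, lowest in the cerebellar markers, Neurod2 is not low.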

How the data were processed

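Total RNA (200 ng per mouse) was labelled with Cy3 or Cy5 and hybridised in 4 pairs to 2-colour Agilent arrays on 1 slide, and per the submitters' processing notes the spots were read with Agilent Feature Extraction 10.7.3.1. From the deposited scanner output came 2 kinds of intensity, the median brightness of a spot with its uncorrected background and the processed intensity, background-subtracted and dye-normalized by the scanner software, per the file headers. Deposited 0 or 1 marks, the only other columns used, flag spots above background, saturated spots and outliers. The authors' deposited log2 table has no stated scale. Its columns followed the quantile-normalized log2 processed intensity minus each probe's median over the 8 mice (r above 0.9999 over 28308 probes), which settled scale, centring and direction for these probes. Its column medians were -0.0496 to 0.0364.

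Spots were corrected by normexp (offset 50, which draws ratios of dim spots toward 0) and loess in limma 3.58.1 (R 4.3.3), with outlier spots left out. Levels were taken after Aquantile normalization. Between 56.3% and 67.7% of the 55681 probes were well above background per channel, and the number of arrays limits the precision. A probe passed if 3 or more mice of either genotype had it well above background (33308 probes), and 33300 had a value on every array and were tested. Accessions named 27509 probes through RefSeq. A gene stands by its brightest tested probe. Ratios were fitted with genotype and dye terms (2 residual and 3.65 prior degrees of freedom), and Benjamini-Hochberg adjusted p under 0.05 was the threshold. The spread then comes from pair 1 against 3 and pair 2 against 4. Because each ratio is taken within an array, the pair acts as a block. The series' design text calls the mice biological replicates. Deviations from the genotype means correlated at r = 0.791, 0.315, 0.493 and 0.740 within pairs 1 to 4, which share spots, and in pair 2 a mouse of another number was closer (0.690). Named genes were the 7, the 3 brightest of each synaptic list and the 10 most and 5 least alike by r; some genes this rule names are not reported here. The members and lists were chosen with earlier results of these data known, and the fit was checked on simulated data. Alternatives are given under the dependence on processing.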

Additional observations from a re-analysis of the deposited data

Results flagged for a closer look

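Several values of pair 2 stood apart from the other 3 pairs by a gap above Dixon's 95% critical value. These were the log2 ratios of Neurod2 (-2.06), Neurod6 (-3.84) and Nptx1 (-1.16), and the list medians of glutamate receptor subunits (-0.62), inhibitory neuron markers (-0.47), hippocampal markers (-0.93) and oligodendrocyte markers (1.64). They were 7 of 41 groups of 4 examined, where chance marks about 1 in 20, and the 7 share the same 2 mice. Tbr1 and Camk2a, with wider spread among the other pairs, did not pass this criterion.

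Choroid plexus markers had positive median ratios in both female pairs (0.07 in pair 1 and 1.26 in pair 2). They had negative ones in both male pairs (-0.84 and -0.99), a female minus male difference of 1.58 that was not tested. The value of pair 1 lay near 0, so the positive side rested mostly on pair 2.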

How the results depend on the processing

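With the channels fitted separately and no replicate block, none of the 7 genes passed and 1 probe did (401 at an unadjusted p under 0.05 in limma). Of the 7 genes 0 passed with the scanner software's ratio, the authors' table, median centring, no filter, the stricter filter, no dye term, an intensity trend, a sex term or the array as a random block. Leaving out 1 pair gave 0 to 6 passing genes, the 6 without replicate 4. Over those fits the log2 ratio ran from -1.91 to 0.00905 for Camk2a, -0.94 to 0.22 for Neurod2, -1.55 to 0.44 for Neurod6, -0.45 to 0.35 for Nptx1 and -1.19 to 0.26 for Slc17a7, each positive only without replicate 2, and from -2.84 to -0.18 for Tbr1 and -0.95 to -0.18 for Nrgn. The fit without a pair weights the lone array of an orientation as much as the other 2 together, so its values differ from plain means. The median of the 7 was -0.68 to -0.46 in the fits that kept all pairs.

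Over the whole array 3 probes were called. None was with a sex term added, with the authors' table or with the ratio of the scanner software (1885, 2247 and 2257 at an unadjusted p under 0.05 in limma). The listed marker and synaptic genes passed in no fit that kept all pairs. The probe count was 10 with the array as a random replicate block, and 0 to 934 with 1 pair left out: 0 without replicate 1 or 3 (1777 and 467 unadjusted), 13 without replicate 2 and 934 without replicate 4. The cause was not tested. The range of Tbr1 over the mice was 6.61 log2 units here and 7.95 in the authors' table, and that of Neurod6 4.69 and 5.86. Which step of the processing made these ranges differ was not tested.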
